A study of Rattus norvegicus with 14 samples.

Results

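Of the 4993 candidate transcription start sites (TSSs) identified in rat sciatic nerve near both a SOX10 and an H3K4me3 ChIP-Seq peak, 295 TSSs (5.91%) carried no gene symbol. These 295 TSSs were taken by that field alone, without regard to their level or response. A symbol had been given to TSSs lying near a RefSeq gene on the same strand in rat or, after conversion of coordinates, in mouse. A TSS without one was thus not matched to such a gene, but need not lie outside all of them. On the strand of a TSS with a symbol, and within 1 kilobase of it, lay 6 of the 295 upstream and 4 downstream. Why these carried no symbol was not determined. Tn5Prime, which captures the 5′ ends of polyadenylated transcripts by template switching, was applied to 2 sciatic nerves from rats aged 6–9 months, to independent populations of wild type primary rat Schwann cells treated with vehicle (control, 3 libraries) or with CPT-cAMP (3 libraries), to untreated parental S16 cells (2 RNA samples of 1 line, whose spread may be technical) and to 4 untreated ΔSOX10 S16 clones. CPT-cAMP is a cAMP analog that drives cultured Schwann cells toward a myelinating state, and S16 is an immortalized rat Schwann cell line. The ΔSOX10 clones, 1-1, 1-2, 2-1 and 2-2, were single-cell derivatives of cells edited with 1 of 2 independent guide RNAs against the first coding exon of Sox10. The nerve is a mixture of cell types, the 4 clones had passed through single-cell growth that the parental cells had not, and nerve and S16 libraries were sequenced on a different instrument from the primary Schwann cells, so that levels set across these systems carry that difference.

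SOX10 is a transcription factor of the neural crest and Schwann cell lineage that binds and activates promoters and enhancers of myelin genes. H3K4me3 is a histone mark of active promoters. Many mammalian promoters start transcripts in both directions, and the upstream antisense transcripts are usually short and unstable. Other starts far from genes arise at enhancers or at promoters of long noncoding RNAs, or belong to genes missing from the annotation used.

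Total reads per library, recovered from the value of 1 read, ranged from 29895599 to 79940274, so that 3 reads corresponded to 0.0375 to 0.1 RPM, the unit of reads scaled to a common library size. Among the Schwann cell markers examined, 9 of 10 had a candidate TSS. The single Sox10 TSS had 84.1 RPM in parental S16 cells and 0.0412 RPM in the ΔSOX10 clones. Of the markers of other cell types, 2 of 6 fibroblast, 1 of 5 macrophage and 1 of 3 perineurial genes had a candidate TSS, and no endothelial, neuronal, muscle or fat gene did, so that the share of these cells in the nerve was not tested from the table.

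Most TSSs without a symbol were close to, and on the opposite strand from, a TSS with one, or lay far from any. The nearest candidate TSS with a symbol, on either strand, was over 10 kilobases away for 146 of 295 TSSs (49.5%), called isolated here. A divergent arrangement, in which the TSS lies upstream of its neighbor and points away from it, within 1 kilobase, was found for 95 TSSs (32.2%), next to 93 genes. The same arrangement held for 449 of 4698 TSSs with a symbol (9.56%), and 2314 of these (49.3%) had their nearest neighbor on the same strand within 10 kilobases, against 21 TSSs (7.12%) without a symbol. Since the symbol itself required a gene on the same strand, these shares follow in part from how the TSSs were chosen and were not tested. A further 26 TSSs faced their neighbor from downstream on the opposite strand, and 7 were divergent at a greater distance. Isolated refers to the candidate TSSs only and does not mean that no gene is there. Of the isolated TSSs, 59 were within 100 kilobases of a candidate TSS with a symbol, 68 were between 100 kilobases and 1 megabase away, and 19 were farther.

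**Figure D1:**
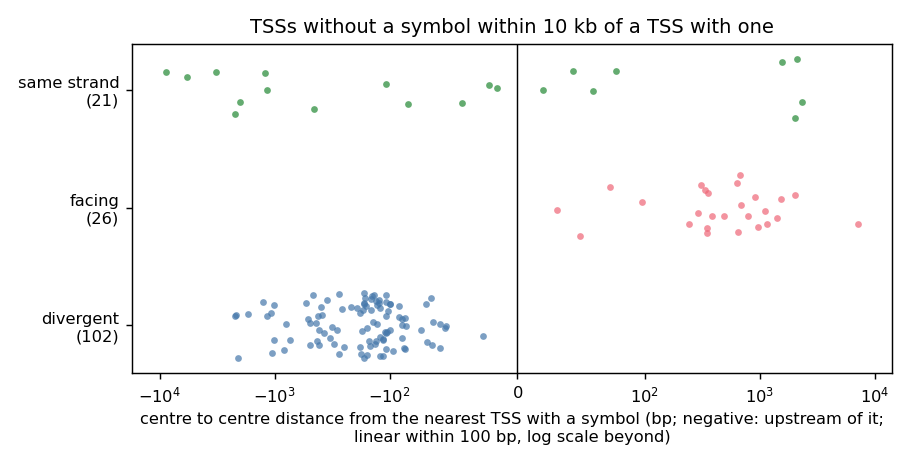
Distance in base pairs from the centre of the nearest TSS with a symbol to the centre of each TSS without one, for the 149 within 10 kilobases, grouped by strand relation (102 divergent, 26 facing, 21 on the same strand); each point is 1 TSS, its vertical scatter is for display, and the axis is logarithmic beyond 100 bp. The divergent TSSs are densest close upstream of the neighbor.

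Divergent TSSs within 1 kilobase were separated from their neighbor by a median of 60 bp, and 61 of 95 TSSs were at most 100 bp away. In nerve the neighbor was the higher of the pair in 72 of 95 pairs, with a median ratio of 2.84. All 95 TSSs shared an H3K4me3 peak with their neighbor. The SOX10 peak overlapped 58 of 95 of these TSSs (61.1%), against 78 of 146 isolated TSSs (53.4%) and 2429 of 4698 TSSs with a symbol (51.7%). The H3K4me3 peak overlapped 266 of all 295 TSSs without a symbol (90.2%) and 4149 with one (88.3%). The median width was 57 bp in each. As every candidate had been chosen for nearby peaks of both kinds, these overlaps describe the position of the peak and not its presence.

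Neighbors of TSSs in these arrangements are shown by their RefSeq promoter (build GRCr8, 250 bases before to 50 after the annotated start). The first is Ssbp1, a mitochondrial single-stranded DNA-binding protein, whose divergent TSS 27146 was 3 bp away, and the others are Dnajc7 and Efcc1, which TSS 6171 and TSS 27440 faced at 31 bp and 481 bp. TSS 6171 faced only the nearest Dnajc7 TSS. Another Dnajc7 TSS lay 89 bp away on its other side, and TSS 6171 was divergent to that one. Coordinates are chr4:70232520-70232819 (plus strand) for Ssbp1, chr10:86054791-86055090 (minus strand) for Dnajc7 and chr4:121745565-121745864 (plus strand) for Efcc1. Capitals mark ACAAA or ACAAT, which match SOX10 monomers, on either strand; TATAAA was searched in the same way.
Ssbp1: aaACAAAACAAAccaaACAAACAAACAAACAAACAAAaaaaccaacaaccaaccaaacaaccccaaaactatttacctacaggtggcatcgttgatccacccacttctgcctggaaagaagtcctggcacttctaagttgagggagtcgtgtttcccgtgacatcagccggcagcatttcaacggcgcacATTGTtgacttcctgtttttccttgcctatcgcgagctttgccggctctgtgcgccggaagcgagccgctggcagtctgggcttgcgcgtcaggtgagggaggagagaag
Dnajc7: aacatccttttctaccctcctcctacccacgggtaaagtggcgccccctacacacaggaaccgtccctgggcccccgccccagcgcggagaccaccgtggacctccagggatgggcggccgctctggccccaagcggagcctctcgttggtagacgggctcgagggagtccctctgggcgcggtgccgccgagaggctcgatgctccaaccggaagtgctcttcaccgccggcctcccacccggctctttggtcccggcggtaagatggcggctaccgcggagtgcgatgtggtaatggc
Efcc1: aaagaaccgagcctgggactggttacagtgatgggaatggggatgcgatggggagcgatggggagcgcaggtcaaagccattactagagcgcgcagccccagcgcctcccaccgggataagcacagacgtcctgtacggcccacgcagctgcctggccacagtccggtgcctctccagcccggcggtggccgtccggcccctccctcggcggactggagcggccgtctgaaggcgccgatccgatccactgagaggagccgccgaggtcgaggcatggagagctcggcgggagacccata
The Ssbp1 window held 8 such words, overlapping ones counted separately, most of them in a simple repeat at its far end, and the other windows held 0. None of the 3 held TATAAA. Of the 93 genes next to divergent TSSs, 79 matched a RefSeq promoter, of which 39 (49.4%) held a SOX10 monomer and 1 (1.27%) TATAAA. Among 2473 matched genes of all candidate TSSs the shares were 47.3% and 6.11%, and among all 27457 promoters 61.2% and 14.3%. The median GC content of the 79 promoters was 61.3%, with 22 CpG dinucleotides, against 52.3% and 7 over all promoters. Because the files use another build (rn5), the TSSs themselves were not placed in these windows.

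TSSs without a symbol were low in nerve and lower in culture. All 4993 candidates averaged above 1 RPM in nerve, where they had been identified, and no such limit held in culture, so that part of the fall for low TSSs follows from how candidates were chosen. Their median nerve level was 3.57 RPM, against 7.28 RPM for TSSs with a symbol, and 205 of 295 (69.5%) were below 5 RPM. In the first nerve 22 of 295 TSSs were at 0 and in the second 7, and the nerves differed by more than 2 times at 162 TSSs (54.9%), against 37.0% of all candidate TSSs. In culture the median was 0.889 RPM without and 1.54 RPM with CPT-cAMP in primary cells, 0.518 RPM in parental S16 cells and 0.389 RPM in ΔSOX10 clones. TSSs with a symbol had medians of 9.96, 10.7, 7.91 and 6.75 RPM in the same order. No read was seen in any of the 12 culture libraries for 41 of 295 TSSs.

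**Figure D2:**
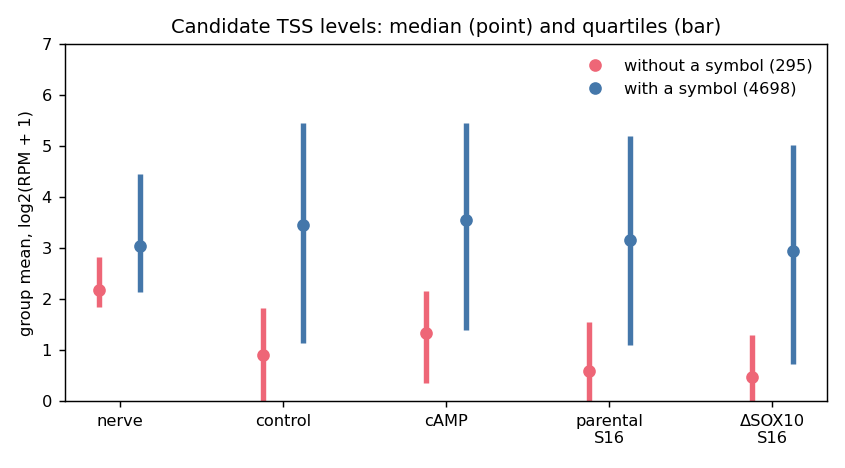
Group mean level of candidate TSSs, as log2(RPM + 1), in sciatic nerve, control and cAMP-treated primary Schwann cells, and parental and ΔSOX10 S16 cells; points are medians over TSSs and bars span the quartiles. TSSs without a symbol lie below those with one in every group, and their median falls from 3.57 RPM in nerve to 0.389 RPM in ΔSOX10 clones.

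The share of all candidate TSS reads that fell in TSSs without a symbol was 0.620% and 0.687% in the nerves. It was 0.277% ± 0.0172 (SD, n = 3) in control and 0.360% ± 0.0108 (SD, n = 3) in cAMP-treated cells, and the groups did not overlap (exact two-sided permutation test, p = 0.1, the smallest that 3 against 3 allows). In S16 cells a single TSS decided the share. TSS 25881 (chr4:61836155-61836244, plus strand), the highest in nerve, had 96.7 and 227 RPM there, 39.1 to 54.1 RPM in control libraries, 63.2 to 101 RPM with cAMP, 1268 and 1272 RPM in parental S16 and 1267 to 1703 RPM in ΔSOX10 libraries. It rose with cAMP by 0.74 on the log2 scale (SE 0.19, limma adjusted p = 0.00675), a call lost without cAMP 1 or 2 (limma adjusted p up to 0.0754). It is isolated, 553 kb from a TSS of Cnot4, a subunit of the CCR4-NOT complex that shortens mRNA tails. With it the share was 0.580% in parental and 0.591% in ΔSOX10 cells (exact permutation test, p = 0.667), and without it 0.222% and 0.146%, where the groups did not overlap (exact two-sided permutation test, p = 0.133, the smallest this test gives for 2 against 4).

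The other TSSs highest in nerve differed in how far the culture models kept them. TSS 25448 (chr3:168863685-168863784, minus strand), divergent at 33 bp from Ncoa3, a nuclear receptor coactivator, had 56.6 and 86.9 RPM in nerve and was the higher of its pair, with 16.5 RPM at the Ncoa3 TSS. It had 23.6 to 46.3 RPM over the primary cell libraries and 13.9 to 28.9 RPM over the S16 libraries. TSS 31973 (chr6:135081556-135081630, minus strand), 16.3 kb from Atxn3, had 63.6 and 66.2 RPM in nerve and reached 80.7 to 131 RPM in primary cells, above the nerve in every library. TSS 20941 (chr2:203217817-203217984, minus strand) had 26.7 and 27.8 RPM in nerve, 41.9 to 64.4 RPM in primary cells and 1.45 to 10.2 RPM in S16 libraries.

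Other TSSs were seen in nerve and little or not at all in culture. TSS 29779 (chr5:137369973-137370090, minus strand) had 12.4 and 31.5 RPM in nerve, TSS 10459 (chr12:51602447-51602585, minus strand) 20.3 and 10.2 RPM, and TSS 30149 (chr5:157739218-157739320, minus strand) 5.99 and 13.7 RPM, and all 3 were at 0 in the 12 culture libraries. A count of 0 allows up to 0.0375 RPM in the deepest of these libraries and 0.0855 RPM in the shallowest. TSS 27440 (chr4:184886226-184886421, minus strand), which faces Efcc1, had 33.4 and 20.8 RPM in nerve, 0 in all control libraries and 0.856 to 2.99 RPM with cAMP. Whether such TSSs were used in Schwann cells of the nerve or in its other cells was not tested, and in a bulk library fewer cells of a type and less RNA per cell cannot be told apart.

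Several TSSs without a symbol could share 1 H3K4me3 peak. The 295 TSSs lay near 260 such peaks, 235 of them with 1 TSS each. The peak with the most, 8 TSSs, was at Neat1, a long noncoding RNA that builds nuclear paraspeckles. The TSSs there, on chromosome 1 between positions 228130413 and 228135251, were 2 to 13 bp wide and interleaved with Neat1 TSSs on the same strand, and the highest had 3.88 and 12.9 RPM in nerve. A second peak, on chromosome 10 downstream of Col1a1, held 5 TSSs on the plus strand, of which TSS 5997 was the highest.

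With cAMP, 20 of 193 tested TSSs without a symbol were higher and 7 lower than in control cells (limma on log2(RPM + 1), Benjamini-Hochberg adjusted over all candidate TSSs tested). Calls in either direction made up 14% of these TSSs, against 23.8% of all tested. The 20 are 10.4%, against 12.9% of 4119 candidate TSSs tested, and the 7 are 3.63%, against 11%. Which share of higher calls was the larger depended on the filter: among TSSs with a mean of at least 5 RPM it was 10 of 50 (20%), against 16.2% of 2983. The median log2 fold change was 0.40 for TSSs without a symbol, with 131 of 193 above 0, and 0.02 over all tested, with 2123 of 4119 above 0. The size of the median for TSSs without a symbol depended on the pseudocount, with 0.64 at 0.1 RPM and 0.18 at 5 RPM. Groups did not overlap at 49 TSSs (25.4%), against 36.6% of all tested. The TSSs without a symbol were also noisier, with a median within-group SD of 0.615 on the log2 scale against 0.369 over all tested. Of the 27 called TSSs, 21 were isolated, 4 divergent within 1 kilobase, 1 divergent farther away and 1 facing. The 21 are 21.9% of 96 tested isolated TSSs and the 4 are 5.88% of 68 tested divergent ones within 1 kilobase, against 23.8% of all tested.

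The 2 largest rises were at TSSs with no read in control cells. Both, like TSS 8400 below, passed the filter through the cAMP libraries alone, so that TSSs of this kind were tested only where they were high with cAMP. TSS 27928 (chr4:237692303-237692471, minus strand) had 0 RPM in each control library and 20.7, 9.77 and 26.5 RPM with cAMP, near the 20.5 and 28.5 RPM of the nerves. The rise was at least 364-fold over the mean floor of 3 reads per control library, the log2 fold change was 4.22 (SE 0.53, limma adjusted p = 2.4e-06), and the TSS was at 0 in all S16 libraries. TSS 36431 (chr8:86992219-86992347, minus strand), 203 kb from Tmem30a and second highest in nerve at 79.6 and 71.8 RPM, had 0 in each control library and 9.27, 13.8 and 11.1 RPM with cAMP. It rose at least 218-fold by the same floor (log2 fold change 3.61, SE 0.53, limma adjusted p = 1.81e-05). TSS 27636 (chr4:210178967-210179079, minus strand) had 2.28, 3.5 and 0 RPM in control and 34, 23.5 and 25.2 RPM with cAMP, and TSS 19523 (chr2:176738866-176738938, plus strand) had 0, 1.54 and 0 RPM and 13.2, 13.9 and 11.4 RPM. In both, each cAMP library was above each control library, by 14.3-fold and 25-fold in the means. TSS 443 and TSS 8400 completed the 6 largest rises among TSSs of at least 5 RPM, with log2 fold changes of 2.97 and 2.95. All 6 stayed called with any 1 library left out.

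The steepest fall was at TSS 11148 (chr13:55689611-55689655, minus strand), 124 kb from Prelp, which had 17, 21.6 and 22.3 RPM in control libraries and 2 reads in all with cAMP. Like TSS 27574 below, TSS 11148 passed the filter through the control libraries alone. Its ratio of means was 2241, with a 95% counting interval of 573 to 17116 (log2 fold change -4.39, SE 0.50, limma adjusted p = 5.26e-07). Counting intervals and floors cover the sampling of reads only, which carry no molecular identifiers. TSS 28434 (chr5:117961937-117961990, plus strand), divergent at 1.02 kb from Jun, the transcription factor that marks immature and injured Schwann cells, had 7.58, 6.34 and 5.64 RPM in control and 0.726, 1.66 and 0 RPM with cAMP. It fell by 2.17 on the log2 scale (SE 0.56, limma adjusted p = 0.0059), and the Jun TSS, at 475 to 606 RPM in control and 55.1 to 67.4 RPM with cAMP, fell by 3.13. TSS 14988, TSS 27574, TSS 9814 and TSS 16413 also fell, the last from 10.7, 16.6 and 25.1 RPM to 11.3, 4.23 and 3.31 RPM, where the groups overlap. The calls of TSS 11148, TSS 28434 and TSS 27574 stayed with any 1 library left out. That of TSS 14988 was lost without control 2 or cAMP 3, that of TSS 9814 without control 2 or 3 or cAMP 1 or 2, and that of TSS 16413 without control 2 or 3 or cAMP 2 or 3 (limma adjusted p up to 0.0716, 0.0954 and 0.153).

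Loss of SOX10 was set against parental S16 cells in 139 tested TSSs without a symbol, of which 9 were lower and 1 higher. The 9 are 6.47%, against 6.55% of 3875 candidate TSSs tested, and the 1 is 0.719%, against 1.65%. Among TSSs with a mean of at least 5 RPM, 4 of 30 were lower (13.3%), against 6.21% of 2671. The median log2 fold change was -0.28, against -0.18 over all tested. TMM scaling moved the median over all to -0.05 and that of TSSs without a symbol to -0.22, and at a pseudocount of 5 RPM the medians were -0.11 and -0.12 for TSSs without a symbol and over all. All 10 called TSSs were isolated, which is 12.8% of 78 tested isolated TSSs, against 8.21% of all tested called in either direction, and 18 of the 78 had groups that did not overlap (23.1%), against 29.4% of all tested. None of the 61 tested TSSs within 10 kilobases of a TSS with a symbol was called. In simulated data of this design over all candidate TSSs tested, the test found 10.8% of log2 changes of 1 and 48% of log2 changes of 2. Of its calls there, 12.1% were false. The absence of a call therefore does not show that a TSS was unchanged.

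TSS 5997 (chr10:82582693-82582756, plus strand) showed the largest loss, from 49.8 and 54.3 RPM in the parental libraries to 0, 0.0763, 0 and 0.0285 RPM in clones 1-1, 1-2, 2-1 and 2-2. The ratio of means was 1986, with a counting interval of 761 to 7156 (log2 fold change -5.69, SE 0.37, limma adjusted p = 2.95e-05). It lies 12.9 kb downstream of the nearest of 8 candidate TSSs of Col1a1, which encodes a collagen I chain. That Col1a1 TSS, with 11.1 and 8.84 RPM in parental cells, had a log2 fold change of 0.59 (SE 0.45, limma adjusted p = 0.538). Its value does not stand for the whole gene. RefSeq (GRCr8) places Sgca, Hils1, Ppp1r9b, Samd14 and an uncharacterized locus between Col1a1 and Pdk2, the next candidate gene, and the position of the TSS among them was not determined. In primary cells TSS 5997 had 34.8, 41.6 and 37 RPM in control and 25, 42.5 and 34.6 RPM with cAMP, and these groups overlapped. TSS 5153 (chr10:28389008-28389178, plus strand) had 11.8 and 8.04 RPM in parental cells and 0 in all 4 clones, at least 124-fold lower by the mean floor (log2 fold change -3.42, SE 0.37, limma adjusted p = 0.000487). TSS 31477 (chr6:34089643-34089797, minus strand) went from 3.48 and 7.98 RPM to 2 reads over the clones (log2 fold change -2.65, SE 0.41, limma adjusted p = 0.00374). TSS 5997, TSS 5153 and TSS 31477 passed the filter through the parental libraries alone. With 2 parental libraries, which falls stayed called without either of them depended on the filter. When it was applied again to the remaining 5 libraries, TSS 5997, TSS 5153, TSS 31477, TSS 36431 and TSS 5407, which were near 0 in the clones, no longer passed it and were not tested, and TSS 14988 and TSS 27636 were the 2 falls still called. When the TSSs that passed over all 6 libraries were kept, an alternative chosen after seeing the data, the first 5 were called without either parental library and TSS 14988 and TSS 27636 were not (limma adjusted p up to 0.143 and 0.209). Under either filter the spread came from the clones alone, with the single parental library assumed to vary like them.

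6 TSSs were called in both comparisons, and 4 of them rose with cAMP and fell without SOX10. Of the 9 called lower without SOX10, these 4 were higher with cAMP, 1 was lower and 4 were not called. The share with the pattern over all candidate TSSs was not computed, and the paper reports it for many of its SOX10-dependent TSSs. The 4 are therefore not a trait shown to be particular to TSSs without a symbol. TSS 36431 had 10.1 and 8.76 RPM in parental cells and 1 read over the 4 clones (log2 fold change -3.37, SE 0.36, limma adjusted p = 0.000424). TSS 27636 had 91.3 and 76.1 RPM in parental cells and 11.5, 16.8, 7.68 and 24.1 RPM in the clones (log2 fold change -2.51, SE 0.41, limma adjusted p = 0.00502). It lies 49.2 kb upstream of the nearest candidate TSS of Vgll4, which encodes a cofactor of TEAD transcription factors. Whether TSS 27636 lies within that gene was not determined. The nearest Vgll4 TSS had log2 fold changes of 0.19 with cAMP (limma adjusted p = 0.311) and -0.76 in the clones (limma adjusted p = 0.0513), neither past the threshold. It had 67.9 and 73.3 RPM in parental cells and 39.3, 39, 44.1 and 43.3 RPM in the clones, with no overlap. TSS 19523 fell from 17.5 and 17.1 RPM to 7.97, 3.89, 2.87 and 4.1 RPM, and TSS 8259 (chr10:109014398-109014532, minus strand) from 3.41 and 3.68 RPM to 0, 0, 1.2 and 0 RPM, with no overlap in either. Both calls were lost without either parental library, that of TSS 19523 also without clone 1-2, 2-1 or 2-2 and that of TSS 8259 without clone 1-1, 1-2 or 2-2 (limma adjusted p up to 0.247 and 0.456). The rise of TSS 8259 with cAMP, of 1.04 on the log2 scale, was lost without control 2 or 3 or cAMP 2 or 3 (limma adjusted p up to 0.111).

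The remaining TSSs called in both behaved otherwise. TSS 27574 (chr4:196449125-196449174, minus strand) had 2.45, 7.49 and 8.2 RPM in control and 1 read over the cAMP libraries, and rose from 1.6 and 0 RPM in parental cells to 8.38, 5.67, 4.73 and 7.72 RPM in the clones (log2 fold change 2.21, SE 0.49, limma adjusted p = 0.0264). The call in the clones was lost without parental 2, where the log2 fold change was 1.52 (limma adjusted p = 0.365), and without clone 1-1 or 1-2. TSS 14988 (chr16:71252730-71252833, plus strand) fell in both comparisons, from 72.2, 81.4 and 75.3 RPM to 56.3, 51.7 and 45 RPM with cAMP and from 122 and 106 RPM to 23.7, 13.6, 16.1 and 32.9 RPM in the clones. It lies 31.9 kb upstream of the nearest candidate TSS of Tacc1, which encodes a centrosomal coiled-coil protein, on the same strand. Whether TSS 14988 lies within that gene was not determined. This Tacc1 TSS rose with cAMP, from 9.42, 14.7 and 11.5 RPM to 35.5, 24.8 and 22.9 RPM (log2 fold change 1.15, limma adjusted p = 0.008), and fell in the clones (log2 fold change -2.31, limma adjusted p = 0.0305). The difference between TSS 14988 and the Tacc1 TSS was not tested, as pairs were limited to 10 kilobases.

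**Figure D3:**
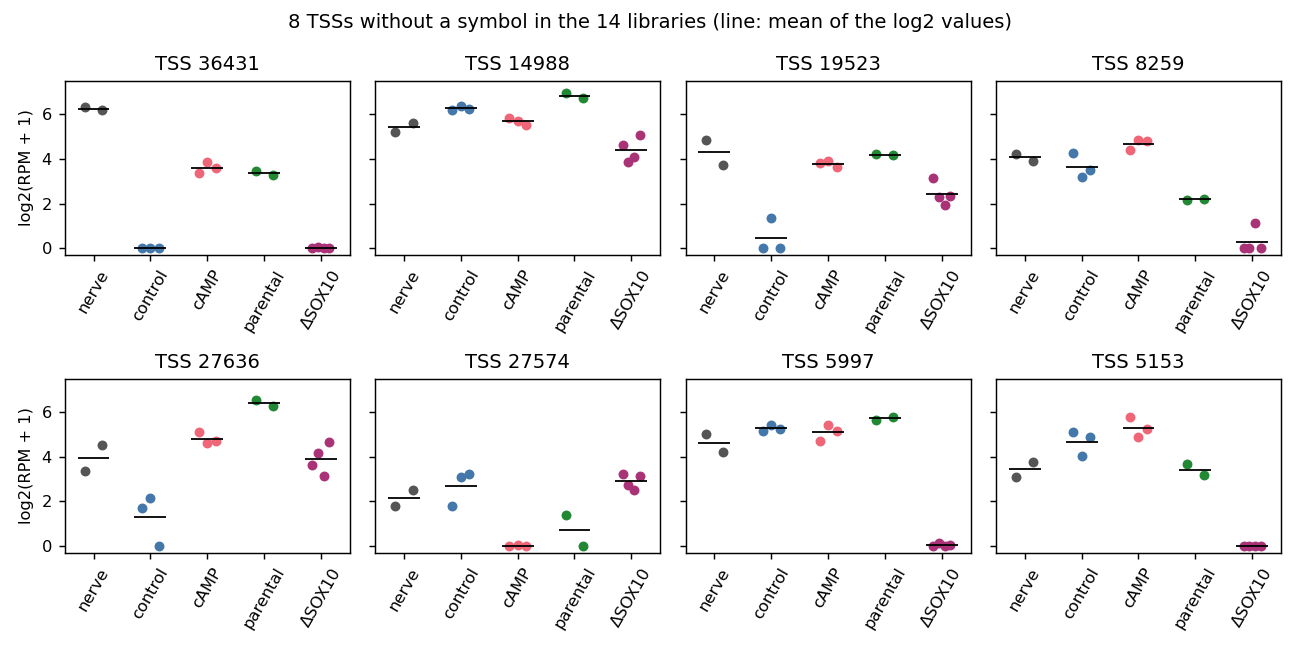
Levels of 8 TSSs without a symbol, as log2(RPM + 1), in each of the 14 libraries; points are libraries and lines the mean of each group's log2 values. TSS 36431 is at 0 in all control libraries and at or near 0 in all ΔSOX10 clones, TSS 5997 and TSS 5153 are at or near 0 in the clones only, and TSS 27574 is near 0 with cAMP.

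Of 131 TSSs without a symbol tested in both comparisons, 59 had a log2 fold change above 0 with cAMP and below 0 in the clones, 12 the reverse, 27 above 0 and 33 below 0 in both. Most TSSs without a symbol went these ways in each comparison alone. With cAMP 131 of 193 tested were above 0, against 2123 of 4119 over all candidate TSSs tested. In the clones 94 of 139 were below 0, against 2464 of 3875, so that most candidates went down there. The counts over both comparisons therefore do not by themselves show a link, and such joint counts over all candidate TSSs were not taken. Over the TSSs tested in both, Pearson's r between the comparisons, which share no library, was -0.12, as a description across TSSs that share libraries within each comparison. Neither comparison called 109 of these TSSs.

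**Figure D4:**
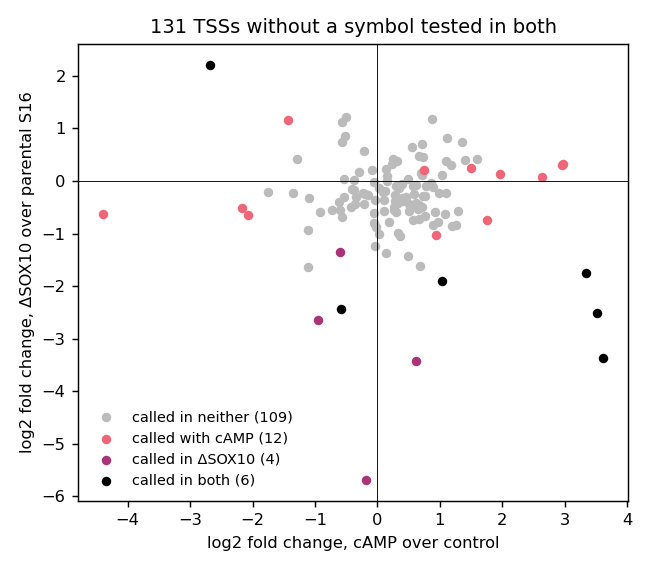
Log2 fold change with cAMP (horizontal) against that in ΔSOX10 clones (vertical) for the 131 TSSs without a symbol tested in both; each point is 1 TSS, colored by the comparison in which it was called. Of the 6 called in both, 4 lie to the lower right, TSS 27574 to the upper left and TSS 14988 to the lower left.

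TSSs without a symbol were also compared with their nearest TSS with one within 10 kilobases, by testing the log2 difference of the pair. With cAMP, 0 of 86 pairs were called by limma, against 1.8% of 1886 pairs over all candidate TSSs, and 12 pairs were higher and 1 lower at an unadjusted p under 0.05. The TSS without a symbol gained on its neighbor in 62 of 86 pairs, with a median difference of 0.45, where its own median was 0.37 and that of the neighbors -0.10. The median difference over all 1886 pairs was 0.02. In ΔSOX10 clones, 0 of 58 pairs were called by limma, against 1.67% of 1674, and 3 were higher and 0 lower at an unadjusted p under 0.05. The median difference was -0.07. Counts at an unadjusted p over all pairs were not taken in either comparison. Data with known changes were simulated over all candidate TSSs tested, with partners taken at random. The test found 18.9% of 4-fold and 71.9% of 16-fold differences in the cAMP design and 7.5% and 70.6% in the S16 design, so that smaller differences within a pair were mostly not detectable. TSSs without a symbol were lower and noisier than all candidates, and the share found among them alone was not simulated.

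The pair nearest to a call was at Zbtb38, which encodes a methyl-DNA-binding zinc finger protein, and was singled out after its values were seen. TSS 35222 (chr8:104047596-104047620, plus strand), divergent at 65 bp, had 0.315, 7.99 and 5.21 RPM in control and 14.1, 12 and 9.43 RPM with cAMP (log2 fold change 1.6, SE 0.57, limma adjusted p = 0.0475). Its call was lost without any library except control 2, and the log2 fold change was 0.77 without control 1 (limma adjusted p = 0.259). The Zbtb38 TSS had a log2 fold change of -1.56 (limma adjusted p = 0.0524), and the difference of the pair was 3.16 (SE 0.65, limma adjusted p = 0.0613). TSS 31277 (chr6:144187666-144187785, plus strand), overlapping in position with the opposite Hsp90aa1 TSS, a chaperone gene, rose from 4.11, 1.25 and 1.28 RPM to 5.95, 8.54 and 8.01 RPM (log2 fold change 1.5, limma adjusted p = 0.038), while the Hsp90aa1 TSS fell by 0.43 on the log2 scale (limma adjusted p = 0.00141) and the difference of the pair was 1.93 (limma adjusted p = 0.104). The call of TSS 31277 was lost without any library except control 1 (limma adjusted p up to 0.118). At Ssbp1, TSS 27146 had 7.63, 1.85 and 1.83 RPM in control and 2.99, 8.29 and 4.14 RPM with cAMP, which overlap, and the difference of the pair was 0.18.

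**Figure D5:**
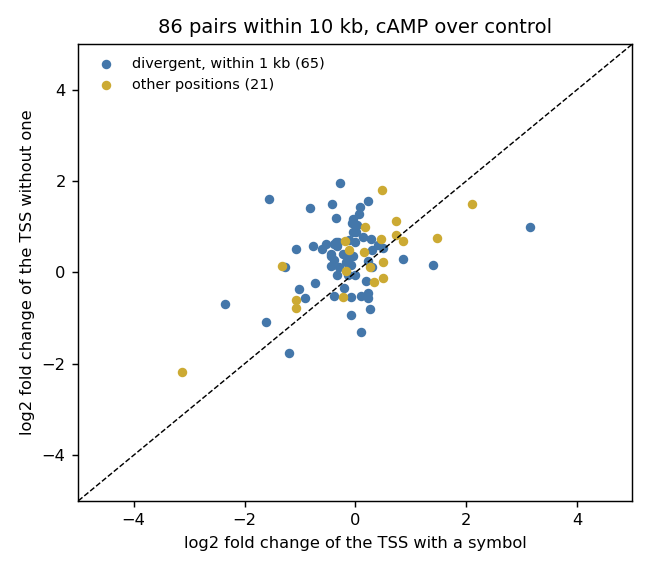
Log2 fold change with cAMP of the nearest TSS with a symbol (horizontal) and of the TSS without one (vertical) for 86 pairs within 10 kilobases, 65 of them divergent within 1 kilobase; the dashed line marks equal change. Of the 86 points, 62 lie above the line, and none of the differences passed the threshold.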

How the data were processed

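The deposited table gives, per the file headers, RPM (reads scaled to library size) per TSS in 14 Tn5Prime libraries. The authors trimmed reads with cutadapt 1.14, mapped them to rn5 with STAR 2.5.2a, converted them with SAMtools 1.9, clustered start sites with Paraclu and counted reads with featureCounts (Subread 1.6.1). The table also holds log2 fold changes and FDR values that the authors computed with edgeR; they were not used. Full-precision RPM values were whole multiples of 1 read within 0.02 reads in all 14 libraries, and recovered reads were used for depth, floors and count tests. Part of the values of both parental libraries and of clones 1-1 and 1-2 was rounded to 3 digits, so their reads are approximate.

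TSSs above 1 RPM in at least 2 of the 6 libraries of a comparison were tested on log2(RPM + 1) with limma 3.58.1 (eBayes with trend) in R 4.3.3, adjusted over all candidate TSSs tested, threshold 0.05. A TSS near 0 in 1 group could pass this filter only through the group where it was high. Fold changes on this scale understate those of low TSSs. Pairs were tested with limma on the log2 difference. Shares of reads were compared with exact permutation tests (scipy 1.17.1). Scripts were tested on simulated data. In the S16 design 12.1% of calls were false, and 10.8% of log2 changes of 1 and 48% of log2 changes of 2 were found. In the cAMP design 5.08% of calls were false, and 45.3% and 65.7% of these changes were found. TSSs were named by fixed rules: the 10 highest in nerve, the 6 largest called changes per comparison and direction at 5 RPM or more, those called in both comparisons, the 4 highest in nerve of each position class, called pairs (there were 0), and 3 at 0 in culture; not all are described. The TSSs, lists and tests were chosen with earlier results of these data known. Alternatives were edgeR 4.0.16, DESeq2 1.42.0, other scalings, filters, pseudocounts and neighbors, and leaving out libraries. Replicate numbers of primary cells did not pair the libraries (correlations of deviations 0.029, 0.0075 and 0.038).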

Additional observations from a re-analysis of the deposited data

Results flagged for a closer look

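Among 18 TSSs without a symbol that were named and had at least 1 RPM on average in the ΔSOX10 clones, 2 had a clone far from the other 3 by Dixon's test, where chance gives about 1 in 20. TSS 31277, divergent to Hsp90aa1, had 0.051, 0.330, 5.68 and 0 RPM in clones 1-1, 1-2, 2-1 and 2-2, and the gap of clone 2-1 to the next was 0.942 of the range. TSS 20941 had 8.23, 2.34, 1.45 and 2.39 RPM, and the gap of clone 1-1 was 0.861 of the range. Without clone 1-1, its log2 fold change in ΔSOX10 cells moved from -1.38 to -1.78 and the limma adjusted p from 0.207 to 0.0393.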

How the results depend on the processing

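Of the 20 TSSs without a symbol called higher with cAMP, the count was 11 of 193 tested with edgeR (5.7%, against 10.5% over all). At a mean of at least 5 RPM it was 10 of 50 (20%, against 16.2%). Of the 7 called lower it was 3 with each (1.55%, against 8.55%, and 6%, against 14.9%). Leaving out 1 library gave 13 to 16 higher and 4 to 6 lower. The replicate block gave 21 higher and 8 lower, and the block was not used as the numbers did not pair the libraries. In ΔSOX10 cells the 9 called lower became 4 of 30 tested at a mean of at least 5 RPM (13.3%, against 6.21% over all). The 1 called higher became 0 with edgeR and at that mean, 3 with DESeq2 and 2 without a filter. Leaving out 1 library gave 2 to 8 lower, 2 without either parental library, and 0 to 1 higher; with the TSSs that passed the filter over all 6 libraries kept, chosen after seeing the data, it gave 5 to 8 lower, 5 without either parental library, and 0 to 1 higher, and with cAMP 13 to 16 higher and 4 to 7 lower. Of the falls not called without a parental library, 5 no longer passed the filter, and TSS 19523 and TSS 8259 were tested and lost the call. No fall was called without either one under both versions. Of pairs with cAMP, 1 was called higher at a pseudocount of 0.1, 1 higher and 1 lower against the highest neighbor within 10 kb, and 1 higher (Zbtb38, limma adjusted p = 0.0116) with the spread trended on the lower level, an alternative chosen after seeing the data. In ΔSOX10 cells 1 pair was higher against the highest neighbor. The difference in read share of 0.0113 percentage points in ΔSOX10 cells turned to -0.0506 without the 5 TSSs with most reads and to -0.0762 without the TSS highest in nerve, the latter chosen after seeing the data, and ranged from -0.00662 (without clone 2-2) to 0.0350 on leaving out 1 library. The median nerve level of 3.57 RPM was 4.04 RPM in the second nerve alone. For all other alternatives and results, counts were within 1.5 times of the main one. The share of higher calls with cAMP also passed that of all tested with all 14 libraries in one model (10.4% against 9.15%) and at a log2 fold change of at least 1 (9.33% against 7.96%). The median log2 fold change with cAMP was 0.62 with edgeR, and that in ΔSOX10 cells -0.52 at a pseudocount of 0.1 and -0.18, against -0.16 over all, without a filter. For single named TSSs, 1337 values under an alternative stayed on their side of the threshold, 76 of them with the opposite sign and none of those called, 97 lost the call and 12 gained it with the same sign. The cause of these shifts was not tested. Levels under the value of 3 reads, 0.0375 to 0.1 RPM, could not be told from 0.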
